A study of Mus musculus with 20 samples.

Results

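The genes described here are 8 that encode products of the PPARα programme and of fatty acid oxidation: Angptl4, Pdk4, Cpt1a, Acadl, Acadm, Ehhadh, Acaa2 and Hadha. They were chosen by name, as every non-control probe of the array whose gene name was one of the 8, which gave 11 probes of 41174. All 8 genes passed the filter on dim probes and are 8 of the 21910 gene features tested. Expression was measured in intestinal epithelial cells (IEC) of healthy, untreated mice aged 28 days, on 1 one-colour array per animal, with 4 animals in each of 5 genotypes. The genotypes were wild type, Trif mutant (homozygous for the LPS allele of the adaptor Trif), Tlr3 knockout, Tlr4 knockout and MyD88 knockout, and the strain is given as C57BBL6 for all of them. The labels name no cell type in which the genes were deleted, no gut region and no time of day at collection. TLR4 senses bacterial lipopolysaccharide and TLR3 senses double-stranded RNA, and both pass their signal on through adaptors, TLR3 through TRIF and TLR4 through TRIF and MyD88. The comparisons ask how epithelial expression differs when each gene is lost or mutated in the absence of infection.

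PPARα is a nuclear receptor that is activated by fatty acids and, paired with a retinoid X receptor, raises transcription of genes for fatty acid transport and oxidation. In the small intestine it is active in enterocytes, which take up dietary fat. Fatty acids enter mitochondria through the carnitine shuttle and are shortened there by repeated rounds of β-oxidation, while very long chains are first shortened in peroxisomes. Angptl4 encodes a secreted inhibitor of lipoprotein lipase, and Pdk4 a kinase that shuts off pyruvate dehydrogenase and so spares glucose. Both are also known targets of other signals, among them glucocorticoids, and Angptl4 also of hypoxia.

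The 250 bases before the start of 3 of the genes are given here to show where the sequence that PPARα with its partner recognises could be read. PPARα with its partner binds a direct repeat of AGGTCA with 1 base between the copies. Sequences are those of RefSeq (GRCm38.p6), 5′ to 3′ on the strand of the gene. Windows were read for 6 of the 8 genes, not for Angptl4 and Acaa2. Capitals mark each AGGTCA, searched on both strands, so that a match on the other strand reads TGACCT. The windows are those of Pdk4 (chr6:5496279-5496528, minus strand), Cpt1a (chr19:3323051-3323300, plus strand) and Acadm (chr3:153944644-153944893, minus strand).
Pdk4: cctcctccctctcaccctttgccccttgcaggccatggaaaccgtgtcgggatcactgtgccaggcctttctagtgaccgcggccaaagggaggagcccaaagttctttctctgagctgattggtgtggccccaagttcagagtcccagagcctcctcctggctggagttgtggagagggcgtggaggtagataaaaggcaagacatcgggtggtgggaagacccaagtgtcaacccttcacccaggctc
Cpt1a: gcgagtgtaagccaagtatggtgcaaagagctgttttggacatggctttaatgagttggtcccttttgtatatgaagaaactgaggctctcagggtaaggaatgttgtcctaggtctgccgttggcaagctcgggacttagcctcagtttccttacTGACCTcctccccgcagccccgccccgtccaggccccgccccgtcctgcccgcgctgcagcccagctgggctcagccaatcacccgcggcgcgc
Acadm: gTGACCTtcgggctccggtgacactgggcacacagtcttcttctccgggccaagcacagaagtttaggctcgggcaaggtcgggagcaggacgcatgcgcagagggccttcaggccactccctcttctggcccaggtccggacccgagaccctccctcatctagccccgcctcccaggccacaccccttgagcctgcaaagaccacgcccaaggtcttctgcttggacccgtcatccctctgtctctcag
The Cpt1a window held 1 match, which began 94 bases before the start, and the Acadm window held 1, which began 249 bases before it. The Pdk4 window held none, nor did those of Acadl, Ehhadh and Hadha. Of all 32851 promoter windows of this length, 14% held at least 1 AGGTCA. The full repeat AGGTCANAGGTCA, on either strand, was in 11 of them (0.0335%), and in none of the 6. A match describes the letters only, and a window without one says nothing about binding elsewhere.

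The cells expressed 8 of 8 epithelial markers, such as Epcam and Vil1, well above background on all 20 arrays. Of 6 adipocyte genes, which would mark fat tissue, Adipoq, Cfd and Lep were well above background on 2, 2 and 1 of the 20 arrays. Plin1, Retn and Cidea were so on 6, 8 and 20 arrays, so these genes give no single answer on fat tissue. The targeted genes were read as a check of the labels. Tlr3 was not well above background on any Tlr3 knockout array and was on all 4 wild type arrays, which bore out that label. Myd88 was lower in MyD88 knockouts by a log2 difference of -1.27 ± 0.11 (SE, 2.41-fold, adjusted p = 1.5e-06). Myd88 was still well above background on all 4 MyD88 knockout arrays, which were scanned apart from the wild type arrays. Its lower level is therefore only a weak check of the MyD88 label. Tlr4 did not pass the filter, and Ticam1, which encodes TRIF, was higher in Trif mutants (0.67 ± 0.13), so neither checks its label. Same-numbered wild type, Trif, Tlr3 and Tlr4 arrays shared a slide, each genotype at the same position on each of 4 slides, so that position and genotype cannot be told apart. The 4 MyD88 arrays were scanned on another day and scanner, with 70.9% to 85.5% of probes well above background against 64.8% to 73.4% on the other 16, which means that their genotype cannot be told apart from the scan. Sex also differed between genotypes: signal of Y-linked genes was above that of Xist in 4 of 4 MyD88 knockouts, 3 of 4 Trif mutants and 1 of 4 Tlr3 knockouts, and in 0 of the 8 wild type and Tlr4 knockout animals.

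Levels below are log2 signals relative to the 75th percentile of the array, listed for replicates 1 to 4 in that order, and a difference is between mean levels (± SE, n = 4 animals per genotype). A gene was called higher or lower at a limma adjusted p (false discovery rate over all features) under 0.05, and "rose" and "fell" stand for such calls. The 4 comparisons with wild type share the same 4 wild type animals. Since this is RNA of many cells, fewer cells of a type and less RNA per cell cannot be told apart.

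In Trif mutants 5 of the 8 genes rose and 0 fell, with a median difference of 0.66 against 0.19 over all features. There 28.6% of all features were called higher and 15.7% lower. In Tlr3 knockouts 5 rose and 1 fell (median 0.49, all features 0.22), where 24.8% of features were higher and 13.8% lower. In Tlr4 knockouts, the genotype with the fewest calls, 3 rose and 0 fell (median 0.28, all features 0.01), where 9.57% of features were higher and 3.12% lower. In MyD88 knockouts 3 rose and 2 fell (median 0.28, all features 0.31), where 37.2% were higher and 12.3% lower. Angptl4 and Pdk4 were the genes called higher in all 4 mutants. The count in Tlr3 knockouts depended on the processing: 2 of the 8 were called after normexp background correction, 3 after scaling to the median, and 3 without any one of wild type replicate 4, Tlr3 replicate 2 or Tlr3 replicate 3.

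**Figure D1:**
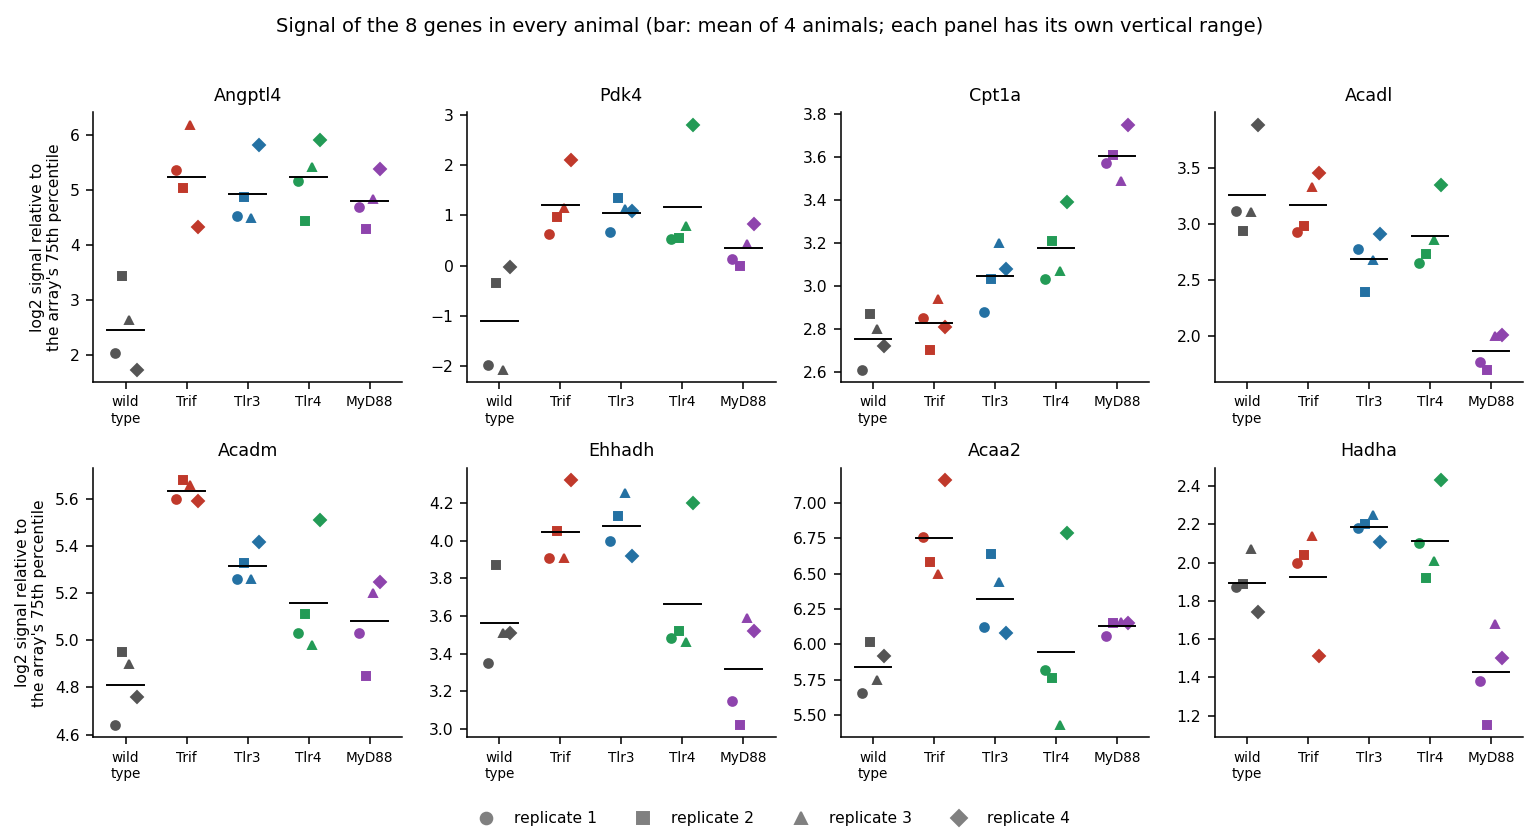
Log2 signal relative to the array's 75th percentile (vertical axis, a separate range in each panel) of the 8 genes in every animal of the 5 genotypes; symbols give the replicate number and bars the mean of 4 animals. All mutant animals lie above all wild type animals for Angptl4 and Pdk4, and the MyD88 animals lie lowest for Acadl and highest for Cpt1a.

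Counted without a test, all 4 Trif mutant animals lay above all 4 wild type animals for 5 of the 8 genes and below them for 0, which was so for 24.7% and 14% of features. All 4 Tlr3 knockouts lay above for 7 genes and below for the remaining one, Acadl (25.4% and 14.9% of features). All 4 Tlr4 knockouts lay above for 4 genes and below for 0 (13.6% and 7.15% of features). All 4 MyD88 knockouts lay above for 4 genes and below for 2, Acadl and Hadha (30.8% and 11.4% of features).

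Angptl4, the secreted lipoprotein lipase inhibitor (probe at mm9 chr17:33911880-33911939, minus strand), was the gene of the 8 with the largest rise in every mutant. Its level was 2.04, 3.43, 2.64 and 1.74 in the wild type animals. It was 5.35, 5.04, 6.18 and 4.32 in Trif mutants and 4.52, 4.87, 4.49 and 5.82 in Tlr3 knockouts. It was 5.15, 4.44, 5.41 and 5.91 in Tlr4 knockouts and 4.68, 4.29, 4.83 and 5.37 in MyD88 knockouts. The lowest mutant animal, at 4.29, lay above the highest wild type animal, at 3.43, and the mutant genotypes overlapped each other. The rise was 2.76 ± 0.43 in Trif mutants (6.79-fold, adjusted p = 8.7e-05), 2.47 ± 0.43 in Tlr3 knockouts (5.52-fold, adjusted p = 0.00042), 2.77 ± 0.43 in Tlr4 knockouts (6.8-fold, adjusted p = 0.00026) and 2.33 ± 0.43 in MyD88 knockouts (5.03-fold, adjusted p = 0.00048). By size of rise Angptl4 held rank 48, 77, 19 and 351 of 21910 features in these 4 comparisons. The Trif and Tlr4 means were both 5.23, and the 95% interval of their difference ran from -0.91 to 0.91.

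Pdk4, the pyruvate dehydrogenase kinase (mm9 chr6:5433441-5433500, minus strand), rose in all 4 mutants as well, from a wild type level that varied more between animals. Its wild type level was -1.98, -0.35, -2.06 and -0.02, so that replicates 2 and 4 lay well above replicates 1 and 3 (SD 1.07). It was 0.63, 0.96, 1.14 and 2.1 in Trif mutants and 0.67, 1.35, 1.12 and 1.08 in Tlr3 knockouts. It was 0.53, 0.55, 0.78 and 2.8 in Tlr4 knockouts, where replicate 4 stood apart, and 0.13, 0, 0.43 and 0.83 in MyD88 knockouts. No mutant animal lay at or below the highest wild type animal, though MyD88 replicate 2, at 0, was close to it. The rise was 2.31 ± 0.51 in Trif mutants (4.95-fold, adjusted p = 0.0015), 2.16 ± 0.51 in Tlr3 knockouts (4.46-fold, adjusted p = 0.0035), 2.27 ± 0.51 in Tlr4 knockouts (4.81-fold, adjusted p = 0.0059) and 1.45 ± 0.51 in MyD88 knockouts (2.73-fold, adjusted p = 0.027). Without Tlr4 replicate 4 the Tlr4 rise was 1.72 ± 0.44 (adjusted p = 0.018). The Pdk4 call in Tlr4 knockouts was lost when those and wild type alone were fitted (2.27, adjusted p = 0.062). The MyD88 call was lost after normexp correction (1.34, adjusted p = 0.071), after scaling to the median (1.04, adjusted p = 0.11) and with Xist as a covariate (1.89, adjusted p = 0.06), and also without wild type replicate 1 (1.16, adjusted p = 0.088) or 3 (1.13, adjusted p = 0.089) or MyD88 replicate 3 (1.42, adjusted p = 0.05) or 4 (1.29, adjusted p = 0.073).

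**Figure D2:**
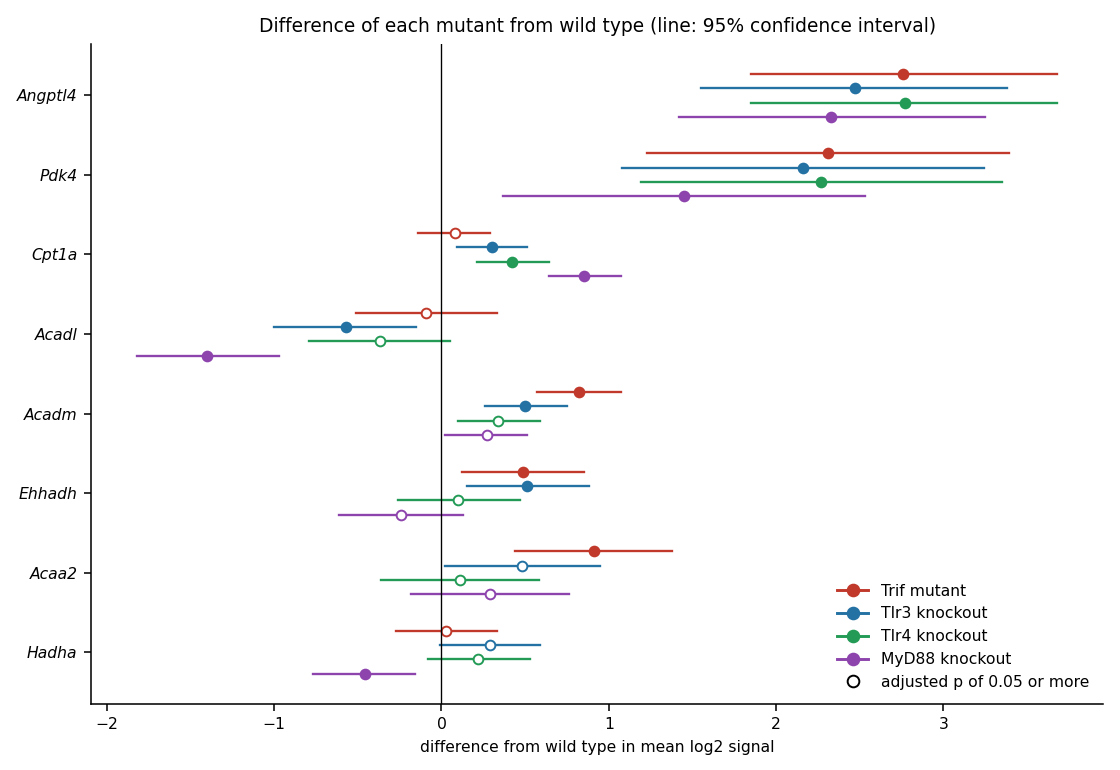
Difference of each mutant's mean log2 signal from wild type (horizontal axis) for the 8 genes; points are differences, lines 95% confidence intervals from the fit over 20 arrays, and filled points have an adjusted p under 0.05. Angptl4 and Pdk4 lie right of 0 in all 4 mutants, while the oxidation enzymes differ by genotype, from -1.4 for Acadl in MyD88 knockouts to 0.91 for Acaa2 in Trif mutants.

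Cpt1a, the carnitine palmitoyltransferase that controls entry of long-chain fatty acids into mitochondria (mm9 chr19:3385374-3385433, plus strand), was highest in MyD88 knockouts. Its level was 2.61, 2.87, 2.8 and 2.72 in wild type animals and 2.85, 2.7, 2.94 and 2.81 in Trif mutants, which overlapped. It was 2.88, 3.03, 3.2 and 3.08 in Tlr3 knockouts, 3.03, 3.21, 3.07 and 3.39 in Tlr4 knockouts and 3.57, 3.61, 3.49 and 3.75 in MyD88 knockouts. The MyD88 animals lay above every other animal. Cpt1a rose by 0.85 ± 0.1 in MyD88 knockouts (1.81-fold, adjusted p = 1.7e-05), by 0.42 ± 0.1 in Tlr4 knockouts (1.34-fold, adjusted p = 0.0086) and by 0.3 ± 0.1 in Tlr3 knockouts (1.23-fold, adjusted p = 0.027), with 0.08 ± 0.1 in Trif mutants (adjusted p = 0.58). The Tlr3 call was lost after scaling to the median (0.06, adjusted p = 0.74), normexp correction (0.28, adjusted p = 0.3) or quantile normalization (0.21, adjusted p = 0.08), in a fit of those 2 genotypes (0.3, adjusted p = 0.053), and without any one of wild type replicates 1 and 4 and Tlr3 replicates 2, 3 and 4 (0.25 to 0.31, adjusted p from 0.05 to 0.09). The Tlr4 call was lost after scaling to the median (0.28, adjusted p = 0.14) and normexp correction (0.34, adjusted p = 0.4). Each array held 10 spots of this probe, whose median SD within an array was 0.0545, below the SD of 0.1 to 0.16 between animals of a genotype.

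The acyl-CoA dehydrogenases, which take the first step of β-oxidation on chains of different length, differed from each other. Acadm, the medium-chain enzyme (mm9 chr3:153585670-153585729, minus strand), was at 4.64, 4.95, 4.9 and 4.76 in wild type animals and at 5.6, 5.68, 5.66 and 5.59 in Trif mutants, which lay above every other animal. It was at 5.26, 5.33, 5.26 and 5.42 in Tlr3 knockouts, 5.03, 5.11, 4.98 and 5.51 in Tlr4 knockouts and 5.03, 4.85, 5.2 and 5.25 in MyD88 knockouts. Acadm rose by 0.82 ± 0.12 in Trif mutants (1.77-fold, adjusted p = 3.7e-05) and by 0.5 ± 0.12 in Tlr3 knockouts (1.42-fold, adjusted p = 0.0029). Its differences of 0.34 ± 0.12 in Tlr4 knockouts (adjusted p = 0.063) and 0.27 ± 0.12 in MyD88 knockouts (adjusted p = 0.067) did not pass, though all 4 Tlr4 animals lay above all 4 wild type animals. The Tlr3 call was lost after normexp correction (0.46, adjusted p = 0.11) and after scaling to the median (0.27, adjusted p = 0.12).

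Acadl, the long-chain enzyme (mm9 chr1:66877673-66877732, minus strand), was called lower in Tlr3 and MyD88 knockouts. Its level was 3.12, 2.94, 3.11 and 3.89 in wild type animals, with replicate 4 highest, and 2.93, 2.98, 3.33 and 3.46 in Trif mutants. It was 2.78, 2.39, 2.68 and 2.91 in Tlr3 knockouts, 2.65, 2.73, 2.86 and 3.35 in Tlr4 knockouts and 1.77, 1.7, 2 and 2.01 in MyD88 knockouts. The MyD88 animals lay below every other animal, and the Tlr3 animals lay below all wild type animals by a narrow gap. Acadl fell by -1.4 ± 0.2 in MyD88 knockouts (2.63-fold, adjusted p = 7e-05) and by -0.57 ± 0.2 in Tlr3 knockouts (1.49-fold, adjusted p = 0.031). It differed by -0.37 ± 0.2 in Tlr4 knockouts (adjusted p = 0.29) and by -0.09 ± 0.2 in Trif mutants (adjusted p = 0.74). The Tlr3 call was lost after normexp correction (-0.61, adjusted p = 0.072), in a fit of those 2 genotypes (-0.57, adjusted p = 0.069) and with Xist as a covariate (-0.54, adjusted p = 0.054). It was also lost without wild type replicate 4 (-0.37, adjusted p = 0.12), without Tlr3 replicate 2 (-0.47, adjusted p = 0.1) and without Tlr3 replicate 3 (-0.57, adjusted p = 0.061).

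Ehhadh, a peroxisomal enzyme of the middle steps of β-oxidation and a classic PPARα target in liver (mm9 chr16:21761914-21761973, minus strand), rose in Trif mutants and Tlr3 knockouts. Its level was 3.35, 3.87, 3.51 and 3.51 in wild type animals, 3.91, 4.05, 3.91 and 4.32 in Trif mutants and 4, 4.13, 4.25 and 3.92 in Tlr3 knockouts, so that both mutants lay just above wild type replicate 2. It was 3.48, 3.52, 3.46 and 4.2 in Tlr4 knockouts, where replicate 4 stood apart, and 3.15, 3.02, 3.59 and 3.52 in MyD88 knockouts. The rise was 0.49 ± 0.17 in Trif mutants (1.4-fold, adjusted p = 0.031) and 0.51 ± 0.17 in Tlr3 knockouts (1.43-fold, adjusted p = 0.027). The differences in Tlr4 knockouts (0.1 ± 0.17, adjusted p = 0.79) and MyD88 knockouts (-0.24 ± 0.17, adjusted p = 0.26) did not pass. Both calls were lost after normexp correction, quantile normalization or scaling to the median, where the differences ran from 0.28 to 0.36 in Trif mutants and from 0.28 to 0.52 in Tlr3 knockouts. The Trif call was also lost with Xist as a covariate (0.52, adjusted p = 0.1) and without any one of wild type replicates 1, 3 and 4 and Trif replicates 2 and 4 (0.39 to 0.48), and the Tlr3 call without any one of wild type replicates 1, 3 and 4 and Tlr3 replicates 2 and 3 (0.44 to 0.5).

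Acaa2 encodes the mitochondrial thiolase of the last step (mm9 chromosome 18, 74965691 to 74965750, plus strand). Its level was 5.66, 6.02, 5.75 and 5.92 in wild type animals and 6.76, 6.58, 6.5 and 7.16 in Trif mutants, with no overlap. It was 6.12, 6.64, 6.44 and 6.08 in Tlr3 knockouts, 5.82, 5.76, 5.43 and 6.79 in Tlr4 knockouts and 6.06, 6.15, 6.16 and 6.15 in MyD88 knockouts. Acaa2 rose by 0.91 ± 0.22 in Trif mutants (1.88-fold, adjusted p = 0.0031), and its differences of 0.48 in Tlr3 (adjusted p = 0.094), 0.11 in Tlr4 (adjusted p = 0.83) and 0.29 in MyD88 knockouts (adjusted p = 0.28) did not pass. Its 10 spots per array had a median SD of 0.06 within an array.

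Hadha encodes the α subunit of the mitochondrial trifunctional protein, which carries out the steps after the dehydrogenase on long chains (brightest probe at mm9 chr5:30446215-30446274, minus strand). Its level was 1.87, 1.89, 2.07 and 1.74 in wild type animals and 1.38, 1.15, 1.68 and 1.5 in MyD88 knockouts, which lay lower. It was 2, 2.04, 2.14 and 1.51 in Trif mutants, 2.18, 2.2, 2.25 and 2.11 in Tlr3 knockouts and 2.1, 1.92, 2.01 and 2.43 in Tlr4 knockouts. Hadha fell by -0.46 ± 0.14 in MyD88 knockouts (1.38-fold, adjusted p = 0.014), and differed by 0.03 in Trif (adjusted p = 0.89), 0.29 in Tlr3 (adjusted p = 0.12) and 0.22 in Tlr4 animals (adjusted p = 0.39). The MyD88 call was lost after normexp correction (-0.36, adjusted p = 0.33).

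Both genes with more than 1 readable probe gave different answers by probe. A second Hadha probe (mm9 chr5:30480638-30480697, minus strand), was at -3.59, -3.76, -3.27 and -3.36 in wild type animals and at -2.35, -2.09, -2.69 and -2.18 in MyD88 knockouts. It was called higher in all 4 mutants, by 0.7 ± 0.16 in Trif mutants (adjusted p = 0.0023) and by 1.17 in Tlr3, 1.16 in Tlr4 and 1.17 in MyD88 knockouts (adjusted p = 4.9e-05, 9e-05 and 4.7e-05). In MyD88 knockouts the brightest probe fell and this one rose, so the direction for Hadha there depends on the probe, and their mean rose by 0.35 (adjusted p = 0.013). The third Hadha probe was well above background on 3 arrays only and was not tested. The second Cpt1a probe (mm9 chr19:3384629-3384688, plus strand) was called in Tlr4 knockouts (0.47 ± 0.14, adjusted p = 0.027), but in MyD88 knockouts it gave 0.31 ± 0.14 (adjusted p = 0.071) where the brightest probe gave 0.85. Exon positions of these probes are not given in the sources used here.

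**Figure D3:**
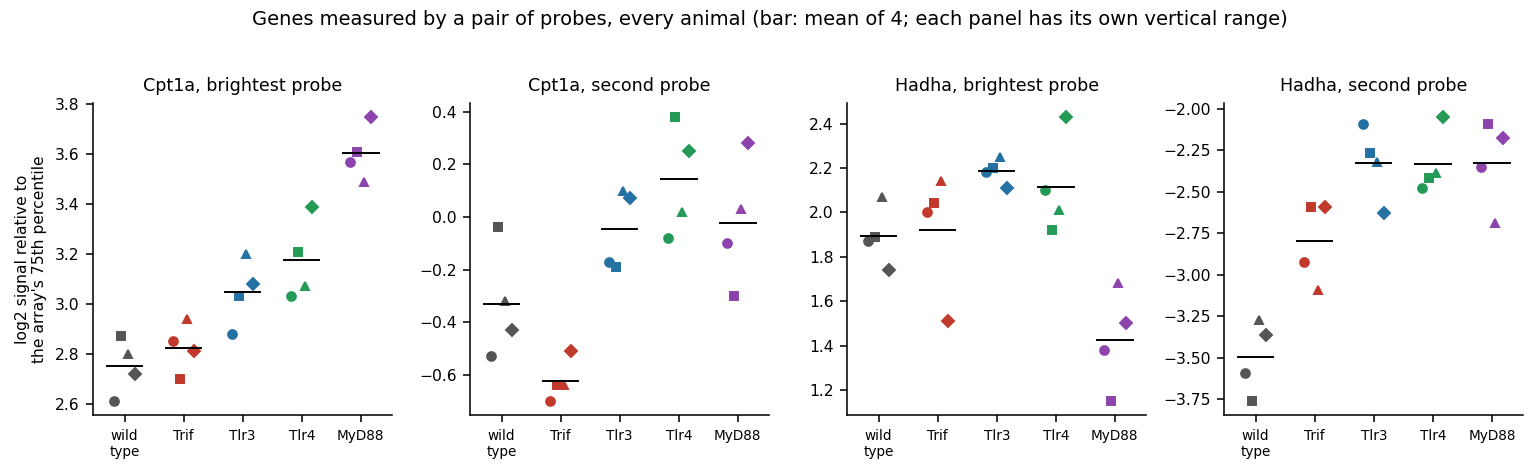
Log2 signal relative to the array's 75th percentile (vertical axis, a separate range in each panel) of the brightest and the second probe of Cpt1a and Hadha in every animal; symbols give replicate numbers as in the plot of all 8 genes and bars the mean of 4 animals. The MyD88 animals lie below wild type on the brightest Hadha probe and above it on the second probe.

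Trif mutants, Tlr3 knockouts and Tlr4 knockouts were also compared with each other, whereas MyD88 knockouts were compared with wild type alone. Trif mutants against Tlr4 knockouts gave 3 calls among the 8 genes, as many as Tlr4 knockouts against wild type, where 41% and 12.7% of features were called. The other comparisons of mutants gave 0. Between Trif mutants and Tlr3 knockouts 0 of the 8 were called in either direction by their brightest probes, where 10.2% of features were higher and 10.1% lower in Trif mutants; at an unadjusted p under 0.05, 3 differed. They were Acadm (0.32 ± 0.12, adjusted p = 0.064), Acadl (0.48 ± 0.2, adjusted p = 0.099) and Cpt1a (-0.22 ± 0.1, adjusted p = 0.13). With the slide as a block Acadl was called (0.48 ± 0.12, adjusted p = 0.017). The second probes of Cpt1a (-0.58 ± 0.14, adjusted p = 0.0066) and Hadha (-0.47 ± 0.16, adjusted p = 0.049) were called lower in Trif mutants than in Tlr3 knockouts, and also lower than in Tlr4 knockouts (-0.76 and -0.46, adjusted p = 0.00028 and 0.031). Between Trif mutants and Tlr4 knockouts, where 23.5% of features were higher and 17.5% lower, Acadm (0.48 ± 0.12, adjusted p = 0.0033) and Acaa2 (0.8 ± 0.22, adjusted p = 0.0081) were higher in Trif mutants and Cpt1a (-0.35 ± 0.1, adjusted p = 0.011) was lower. After normexp correction 0 of these 3 calls were kept. Between Tlr3 and Tlr4 knockouts 0 were called, where 17.3% of features were higher and 13.4% lower in Tlr3 knockouts; 1 gene, Ehhadh, had an unadjusted p under 0.05. Without Tlr4 replicate 4, Acaa2 (0.65, adjusted p = 0.0071), Ehhadh (0.59, adjusted p = 0.0084) and Acadm (0.28, adjusted p = 0.047) were called higher in Tlr3 than in Tlr4 knockouts. For Angptl4 the differences between these 3 mutants ran from -0.3 to 0.3, each with a 95% interval of about 0.91 to either side, so differences inside those intervals cannot be told from 0 with 4 animals each.

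Within a slide, where a mutant array was set against the wild type array beside it, Angptl4 and Pdk4 were higher in the mutant on 4 of 4 slides for Trif, Tlr3 and Tlr4. The Angptl4 difference ran from 1.61 to 3.55 for Trif mutants, from 1.43 to 4.08 for Tlr3 and from 1.01 to 4.17 for Tlr4 knockouts. The Pdk4 difference ran from 1.3 to 3.2, from 1.1 to 3.18 and from 0.9 to 2.84. The slide of replicate 2, whose wild type animal had the highest Angptl4 level, gave the smallest Angptl4 difference for all 3 mutants. Acadm was higher on 4 of 4 slides in each of them, Acadl was lower on 4 of 4 slides in Tlr3 and Tlr4 knockouts, and Ehhadh and Acaa2 were split 2 to 2 in Tlr4 knockouts.

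**Figure D4:**
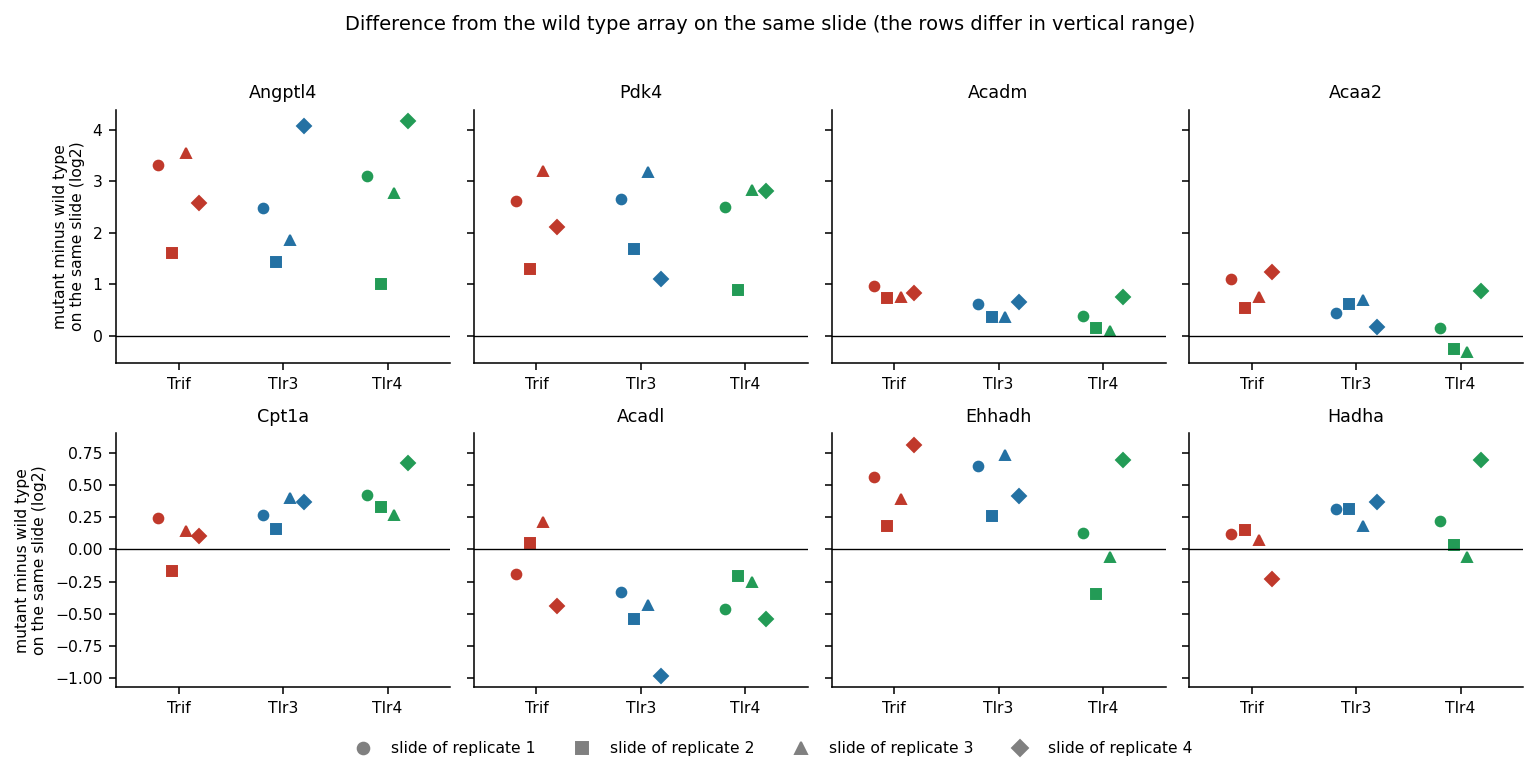
Mutant minus wild type log2 signal on the same slide (vertical axis, one range per row) for the 8 genes in Trif mutants and Tlr3 and Tlr4 knockouts; each symbol is 1 of 4 slides. Every point for Angptl4, Pdk4 and Acadm lies above 0, and every Tlr3 and Tlr4 point for Acadl below it.

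The 8 genes did not vary as 1 block. Over the 20 arrays the 28 pairwise correlations of log2 levels ran from -0.77 to 0.8 with a median of 0.34, and after removal of the genotype means from -0.01 to 0.78 with a median of 0.5. These describe arrays that share their scaling and, for 16 of them, slides. Angptl4 and Pdk4 correlated at 0.74 over all arrays and at 0.19 within genotypes. Averaged over the 8 genes after centring each, the level was -0.83, -0.29, -0.66 and -0.46 in wild type animals and 0.26, 0.26, 0.48 and 0.41 in Trif mutants. It was 0.06, 0.25, 0.22 and 0.31 in Tlr3, -0.02, -0.09, 0 and 0.8 in Tlr4 and -0.27, -0.4, -0.07 and 0.05 in MyD88 knockouts, so that Tlr4 replicate 4 had the highest value of all 20. The genes were centred but not scaled, so Angptl4 and Pdk4, whose levels spread most over the arrays, weigh most in this average. Likeness was searched only among features with a standard gene symbol (15803 of 21910), with the 8 genes left out. The features among them whose level followed the average of the 8 most closely over the 20 arrays were Klf15, a transcription factor (r = 0.92), Slc5a4b (0.9), G6pc, the catalytic subunit of glucose-6-phosphatase (0.9), Gin1 (0.9) and Slc26a3 (0.9). Those nearest to Angptl4 were Fbxl6 (0.9), G6pc (0.87) and Mlxipl (0.87), and those nearest to Pdk4 were Ugt1a6b (0.86), N4bp2l1 (0.85) and Mgst2 (0.84).

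The wider programme was read from 11 lists of 122 measured genes that leave out the 8. In Trif mutants 67 of the 122 rose and 12 fell (median 0.44), in Tlr3 knockouts 45 rose and 8 fell (median 0.26), in Tlr4 knockouts 7 rose and 5 fell (median 0.11), and in MyD88 knockouts 19 rose and 28 fell (median -0.03). The medians over all features were 0.19, 0.22, 0.01 and 0.31. Of all features 28.6%, 24.8%, 9.57% and 37.2% were called higher in these 4 comparisons, and 15.7%, 13.8%, 3.12% and 12.3% lower. The counts of higher genes in Tlr4 and MyD88 knockouts lay below these shares. The same shares hold beside the counts of single lists below. Quantile normalization gave 35 higher and 20 lower in Trif mutants and 21 and 14 in Tlr3 knockouts. Scaling to the median gave 45 and 13 in Trif mutants, 12 and 16 in Tlr3 and 4 and 62 in MyD88 knockouts, and normexp correction 19 and 11 in Trif mutants and 10 and 4 in Tlr3 knockouts. The split over all features moved as well. Under quantile normalization it was 21.5% higher and 18.3% lower in Trif mutants and 16.5% and 17.4% in Tlr3 knockouts, and after normexp correction 13.4% and 9.47%, and 6.74% and 6.75%. After scaling to the median it was 19.1% and 17.5% in Trif mutants, 11.5% and 20.4% in Tlr3 and 15% and 28.8% in MyD88 knockouts. The higher counts of the 122 genes in Tlr3 knockouts therefore lay near the share of all features under each of these 3 alternatives, as did that in Trif mutants after normexp correction.

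The receptor itself, Ppara, rose by 1.11 ± 0.21 in Trif mutants (adjusted p = 0.00043) and by 0.62 ± 0.21 in Tlr3 knockouts (adjusted p = 0.028), with 0.27 in Tlr4 (adjusted p = 0.5) and 0.16 in MyD88 knockouts (adjusted p = 0.54). Its partner Rxra rose in Trif mutants (0.57 ± 0.11, adjusted p = 0.00057) and was not called elsewhere. Pparg, better known from fat cells, rose in Trif mutants (0.74 ± 0.24, adjusted p = 0.019) and fell in Tlr4 knockouts (-0.87 ± 0.24, adjusted p = 0.02). Ppard was not called in any mutant, its differences running from -0.37 to 0.12. Of the 12 receptors, partners and coactivators 7 rose and 2 fell in Trif mutants, where 28.6% of all features were higher and 15.7% lower. The coactivator Ppargc1a was higher there (0.93) and Lpin1 lower (-0.86). In Tlr3 knockouts 3 of the 12 rose, led by Creb3l3, a transcription factor of enterocytes and liver (1), and with Nrip1 (0.44). That count lay near the 24.8% of all features that were higher there, and the list median of 0.15 lay below the 0.22 of all features. In MyD88 knockouts 2 of the 12 rose and 6 fell, where 37.2% of all features were higher and 12.3% lower.

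Of 9 genes for fatty acid uptake and activation, 6 rose in Trif mutants, with the acyl-CoA synthetase and transporter Slc27a2 (1.53), the scavenger receptor Cd36 (1.36) and Acsl1 (0.83) the largest. In Tlr3 knockouts 4 rose, with Slc27a4 (0.76), Acsl5 (0.72) and the fatty acid binding protein Fabp1 (0.67) the largest. Of 6 genes of the carnitine shuttle 4 rose in Trif mutants, among them Cpt1b (0.9), the muscle-type counterpart of Cpt1a, Crot (0.8) and the carnitine transporter Slc22a5 (0.64). In Tlr3 knockouts 3 rose, Cpt1b (1.33), Slc22a5 (0.57) and Cpt2 (0.39). In Tlr4 and MyD88 knockouts 0 of these 6 were called. Crat, added after its values were seen, differed by 3.08 in Trif, 2.9 in Tlr3, 2.36 in Tlr4 and 1.53 in MyD88 animals. It was not called in any of them.

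Of 14 other enzymes of mitochondrial β-oxidation 10 rose and 1 fell in Trif mutants and 7 rose and 1 fell in Tlr3 knockouts, against 1 higher in Tlr4 and 2 higher and 1 lower in MyD88 knockouts. Acad11 rose by 1.14 and 0.91 in Trif and Tlr3 animals, Hadh, the short-chain hydroxyacyl-CoA dehydrogenase, by 1 and 0.55, and Acad12 by 0.57 in Trif mutants, while Acad9 fell by -0.52 in Tlr3 knockouts. Hadhb, the β subunit that pairs with Hadha and was added after its values were seen, rose by 0.45 in Trif, 0.33 in Tlr3 and 0.42 in Tlr4 animals and differed by -0.01 in MyD88 knockouts (adjusted p = 0.94). Of 15 peroxisomal genes 11 rose and 1 fell in Trif mutants, with the thiolase Acaa1b (1.15), the multifunctional enzyme Hsd17b4 (1.03) and Scp2 (0.95) the largest. In Tlr3 knockouts 8 of the 15 rose, with Acaa1b (0.86), Acaa1a (0.66) and Ech1 (0.6) the largest, and in MyD88 knockouts 3 rose and 6 fell. Acaa1a and Acaa1b are near-identical copies, so their probes may not separate them. Under quantile normalization the counts in Trif mutants were 3 higher and 1 lower of the 14, and 6 higher and 1 lower of the 15.

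Of 18 other PPARα targets 12 rose in Trif mutants and 6 in Tlr3 knockouts, and 0 fell in either. The largest in Trif mutants were Acot2 (1.14) and Acot12 (1.04), thioesterases that release fatty acids from coenzyme A, and Retsat (1.13). In Tlr3 knockouts they were Cyp4a10 (0.93), a fatty acid hydroxylase with close paralogs, Cidec (0.83), a lipid droplet protein, and G0s2 (0.75), an inhibitor of lipolysis. Plin2, a coat protein of lipid droplets added after its values were seen, was the single one of the 18 called higher in Tlr4 knockouts (0.93 ± 0.14, adjusted p = 0.00017), and rose by 0.88 in Trif and 0.53 in Tlr3 animals. Of 6 ketone body genes 2 rose and 1 fell in Trif mutants, with Acat1 (0.41) among the higher and Oxct1 (-1.11), which serves ketone body use, lower, and Slc16a1 fell in Tlr3 knockouts (-0.38).

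Angptl4 acts on lipoprotein lipase and Pdk4 on pyruvate dehydrogenase, the gate of the citric acid cycle. Of 8 genes of lipoprotein lipase and its regulators 3 rose in Trif mutants, the apolipoproteins Apoc3 (1.5), Apoa5 (0.96) and Apoc2 (0.64). In Tlr3 knockouts Apoc2 rose (0.44) and Angptl6 fell (-0.62), and in Tlr4 knockouts 0 were called. Of 9 genes of pyruvate dehydrogenase, its kinases and phosphatases, Pdk2 rose in Trif mutants (0.89) and Tlr3 knockouts (1.04), Pdk3 rose in Tlr3 (0.5) and Tlr4 knockouts (0.61), and both Dlat (-0.53 and -0.57) and Pdhx (-0.45 and -0.42) fell in Trif mutants and Tlr3 knockouts. Of 14 citric acid cycle genes 8 rose in Trif mutants, led by Sucla2 (0.52), Dlst (0.48) and Mdh2 (0.47), and 10 in Tlr3 knockouts, among them Sdhb (0.68) and Ogdh (0.51). Under quantile normalization 0 of those 14 were higher and 4 lower in Trif mutants, so their direction there depends on the scaling. Of 11 genes of fatty acid synthesis 5 fell and 3 rose in Trif mutants, with the desaturase Scd2 (-2.7) and the synthase Fasn (-1.86) the largest falls and Acacb (0.93) higher. In Tlr3 knockouts 3 fell and 1 rose, among them Fasn (-1.02) and Acaca (-0.45) lower and Acacb (1.02) higher.

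**Figure D5:**
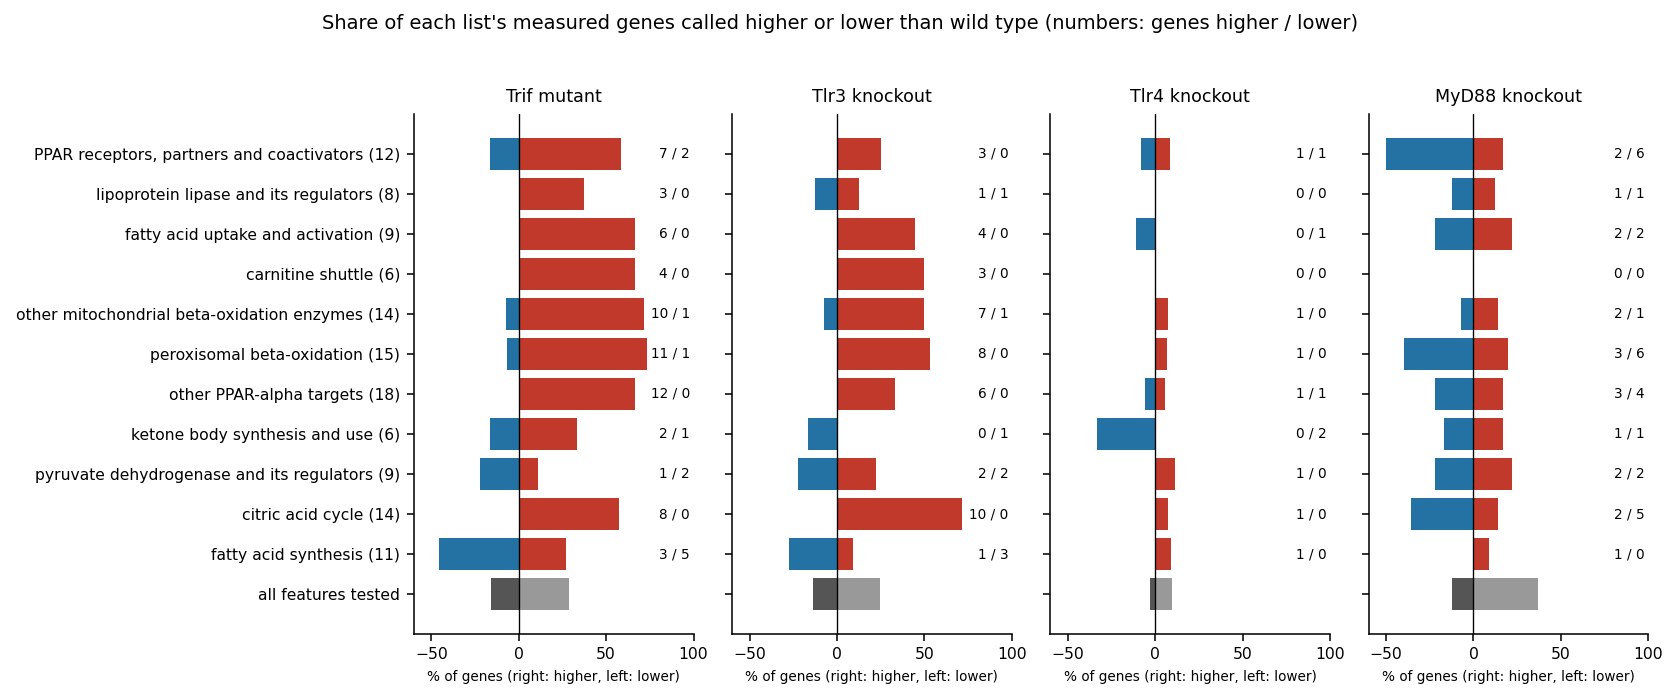
Percentage of the measured genes of 11 lists, none holding the 8 genes, called higher (red, right of 0) or lower (blue, left of 0) than wild type in each mutant; the number of measured genes follows each list's name, counts of higher and lower genes stand at the right, and grey bars give all features tested. In Trif mutants 11 of 15 peroxisomal genes were higher, and in Tlr4 knockouts 1 of 15.

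Other gene groups also differed between genotypes, though not in the same mutants as Angptl4 and Pdk4. Absorptive enterocyte markers were higher in Trif mutants (10 of 12) and Tlr3 knockouts (8 of 12), called 0 times in Tlr4 knockouts and lower for 6 of 12 in MyD88 knockouts. Their summed signal, in multiples of the array's 75th percentile, was 1150 to 1750 in wild type, 2230 to 2440 in Trif, 2090 to 2540 in Tlr3, 1430 to 1910 in Tlr4 and 1140 to 1460 in MyD88 animals. Markers of dividing crypt cells fell for 10 of 10 genes in Trif mutants (median -2.5) and in Tlr3 knockouts (median -1.53), with 0 of 10 called in Tlr4 knockouts. Their summed signal was 85.5 to 103 in wild type, 22.8 to 51.3 in Trif, 37.2 to 59.5 in Tlr3, 67.1 to 104 in Tlr4 and 93.7 to 151 in MyD88 animals. Of 12 immune cell markers 6 were higher in MyD88 knockouts, where 37.2% of all features were, 2 rose and 1 fell in Trif mutants, 3 rose and 1 fell in Tlr3 knockouts, and 1 rose and 1 fell in Tlr4 knockouts. Their summed signal was 55.8 to 88 in wild type, 25.8 to 51.4 in Trif, 29.5 to 33.8 in Tlr3, 30.8 to 65.4 in Tlr4 and 106 to 218 in MyD88 animals.

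Markers of gut regions and other tissues moved too. Of 6 genes listed as ileal markers 4 rose in Tlr3 knockouts (median 1.19), among them Fabp6 (1.54), Slc51a (1.13) and Bco1 (2.82). Bco1 is not confined to the ileum, and it counts in that median. The summed signals of this list were 114 to 166 against 53.4 to 76.8 in wild type. Of 7 markers of the proximal small intestine 2 fell in Tlr4 knockouts (median -1.81), with summed signals of 8.68 to 12.2 against 18.6 to 49.3. Of 5 colon markers 3 rose and 1 fell in Trif mutants, with Aqp8 (3.15) the largest. Of 9 markers of smooth muscle and stroma 3 rose in Tlr3 knockouts (44.8 to 64.3 summed, against 24.7 to 39.8 in wild type). In MyD88 knockouts 5 of the 9 rose, though their summed signal of 22.9 to 27.2 lay at the low end of the wild type range or below it. Acta2 and Actg2 differed there by -0.49 and -0.5 and were not called. In MyD88 knockouts 4 of 6 endothelial and 3 of 5 liver markers also rose, though several genes of these lists were dim. In wild type animals Alb, Ttr and Pecam1 were well above background on 1 array each, and Cyp2e1 and Tie1 on 0. After normexp correction the MyD88 difference went from 1.32 to 0.24 for Alb and from 2.24 to 0.42 for Cyp2e1. Over all features 37.2% were higher in MyD88 knockouts, 28.6% in Trif mutants and 24.8% in Tlr3 knockouts, and 3.12% were lower in Tlr4 knockouts. The part of cell types and gut region in the levels of the 8 genes was not tested.

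Genes known to respond to glucocorticoids were higher for 3 of 9 in Trif mutants, 8 of 9 in Tlr3 and 5 of 9 in Tlr4 knockouts, and 2 rose and 2 fell in MyD88 knockouts. Those named by size were Sgk1 (1.6), Errfi1 (1.11) and Tsc22d3 (1.1) in Trif mutants and Per1 (2.21), Fkbp5 (2.14) and Sgk1 (2.11) in Tlr3 knockouts. Of 12 hypoxia-induced genes 5 rose and 1 fell in Trif mutants, 6 rose in Tlr3 knockouts, 3 rose and 1 fell in Tlr4 knockouts, and 2 rose and 3 fell in MyD88 knockouts. Ndrg1 (1.98) was the largest in Trif mutants and Ankrd37 (1.74) in Tlr3 knockouts. Of 14 circadian clock genes 8 rose in Trif mutants, 8 rose and 1 fell in Tlr3 knockouts, 1 rose in Tlr4 knockouts, and 2 rose and 6 fell in MyD88 knockouts, with Hlf (2.71 in Trif and 2.61 in Tlr3 animals) among the largest. Over all features 28.6% were higher in Trif mutants, 24.8% in Tlr3, 9.57% in Tlr4 and 37.2% in MyD88 knockouts, so that the glucocorticoid count in Trif mutants lay near the background and all 3 counts of higher genes in MyD88 knockouts lay below it. The part of these signals in the levels of the 8 genes was not tested.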

How the data were processed

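Per the labels' protocols, EDTA released the epithelium, a sedimentation step removed immune cells and TRIzol yielded the RNA. Each array is 1 animal, and p-values therefore rest on the variation among 4 animals a genotype. The deposited scanner files, read with Agilent Feature Extraction 10.7.3.1 per the submitters' processing notes, hold 45018 spots per array, and the intensity used is the processed signal of each spot, linear and background-subtracted per the file headers. The deposited value table, in linear signal units, equalled that intensity times 1 factor per array (1.58 to 2.27) with values under 15 raised to 15, for 100% of values within 1 unit plus 0.1%, and its medians lay between 91 and 153. It is neither log-scaled nor centred.

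Control spots (1639) and 67 to 210 outlier spots per array were left out, and 0 spots were saturated. For each probe the spots' log2 values were averaged and expressed relative to the 75th percentile of that array. A probe was kept when 4 or more of the 20 arrays had it well above background, which left 31576 of 41174, and the brightest kept probe represented its gene. The files supply mm9 positions and gene names; 3169 of 26690 probes matched to RefSeq (GRCm38.p6) took a newer name. A model of genotype means over the 20 arrays used limma 3.58.1 (R 4.3.3) (2.17 prior degrees of freedom), with Benjamini-Hochberg adjustment over 21910 features. Precision is limited by the number of arrays.

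The 8 genes and the gene lists were chosen with earlier results of these data known. Named were the 8 genes, 4 receptor genes, up to 3 called genes of each list with the largest change in Trif mutants and in Tlr3 knockouts, and, of features with a standard symbol, the 5 most like the mean of the 8 and the 3 most like Angptl4 or Pdk4. Some genes that this rule would name are not reported here. The alternatives comprised quantile normalization, scaling to the median, normexp correction (offset 50), the deposited table, other filters (none, or 16 arrays), other uses of probes, trended and robust moderation, array weights, the 2 genotypes alone, replicate or slide blocks, Xist as a covariate, and each array left out. Deviations from the group means correlated between wild type and Tlr4 knockout arrays of 1 number (r = 0.35, 0.22, 0.19 and 0.17 across features). These arrays shared slides, as did the Trif and Tlr3 arrays. The main fit held no term for the slide or replicate, so its differences and p-values are unpaired, and blocks were used only among the alternatives.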

Additional observations from a re-analysis of the deposited data

Results flagged for a closer look

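Of 40 groups of 4 animals (8 genes in 5 genotypes), 3 held an animal far from the rest of its group by Dixon's criterion, which flags about 1 group in 20 by chance. Pdk4 in Tlr4 knockout replicate 4 was 2.8, above the other Tlr4 animals at 0.53 to 0.78. Ehhadh in the same animal was 4.2, above 3.46 to 3.52. Acaa2 in MyD88 knockout replicate 1 was 6.06, below 6.15 to 6.16, a gap that is small against the SD of the other genotypes (0.16 to 0.59).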

How the results depend on the processing

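Of 776 values of single genes under other settings 720 kept direction and side of the threshold, 29 lost a call, 26 gained one and 1 reversed: Hadha in MyD88 knockouts, at 0.35 with the mean of its probes, which adds a probe that went the other way. Angptl4 kept its call against wild type in every setting run and without any one array. Against wild type, the Ehhadh call in Trif mutants was kept in 10 of 14 other settings, and the Cpt1a call in Tlr4 knockouts in 12 of 14. Among other moves, counts of genes called against wild type went to 3 in MyD88 knockouts (normexp). In Tlr3 knockouts they went to 2 (normexp) and 3 (median scaling). Between Tlr3 and Tlr4 knockouts counts went to 3 (array weights). Between Trif mutants and Tlr4 knockouts they went to 0 (normexp) and 1 (only the 2 genotypes compared). Between Trif mutants and Tlr3 knockouts they moved from 0 to 1 under quantile normalization, median scaling, trended and robust moderation, array weights and either block, and to 2 with the mean of probes. Beyond fewer samples or added probes, the cause was not tested. Leaving out 1 array, counts ran from 4 to 5 (Trif), 3 to 6 (Tlr3), 3 to 4 (Tlr4) and 4 to 6 (MyD88) against wild type, 0 to 0 between Trif and Tlr3, 3 to 4 between Trif and Tlr4 and 0 to 3 between Tlr3 and Tlr4 animals.

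The replicate block changed 1 call: Acadl between Trif mutants and Tlr3 knockouts, at 0.48 with an adjusted p of 0.014 over 20 arrays and 0.017 with the 16 arrays that share slides. It changed no other call of the 8 genes.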
